A study of Mus musculus with 12 samples.

Results

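Gzmk-high CD8 T cells of MC38 tumours, called Gzmk-high cells here, were chosen by their raw counts of unique molecular identifiers (UMIs, each 1 captured RNA molecule). A cell had at least 500 detected genes and at most 10% mitochondrial UMIs, at least 1 UMI of Cd8a or Cd8b1, none of Cd4 or Foxp3, at least 3 of Gzmk, none of Havcr2, none of Klre1, and not both Tcf7 and Pdcd1. The rule found 93 cells, which were 5.94% of the 1566 CD8-lineage cells (Cd8a or Cd8b1 present, Cd4 and Foxp3 at 0) and 3.39% of the 2740 cells kept. The 9 genes of the rule were measured in these same cells, so their levels are a description and were left out of every test.

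MC38, a mouse colorectal carcinoma line, was grown in mice heterozygous for Kaede, a fluorescent protein that changes from green to red under violet light. Violet light was applied to the node draining the tumour on day 14. A red T cell in the tumour thus carried Kaede converted in that node, and green cells had not been converted. The tumours of the RT groups then received a single dose of 12 Gy, and FTY720, a drug that acts on sphingosine-1-phosphate receptors and holds T cells in lymph nodes, was given at 10 µg on day 15. T cells (live CD90.2+, after magnetic CD4 and CD8 enrichment) were sorted as red or green and stained with hashtag antibodies.

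The 6 conditions, each of Kaede heterozygous mice with MC38 tumours and a node so treated, were NT at day 1 and day 3, RT at day 1 and day 3, and at day 3 also FTY720 alone and RT with FTY720. NT is the submitters' label for tumours given neither agent, and days 1 and 3 are the 24 h and 72 h harvests (days 15 and 17). The age of the mice is not given in the sources used here. Each condition had 2 replicate pools of 4 tumours, giving 12 pools and 24 hashed samples. In either replicate, both day 1 conditions and NT day 3 were run in the same 10x well and the remaining 3 conditions in a second, so that RT and NT at day 3 cannot be told apart from their wells.

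Granzyme K is a serine protease of cytotoxic granules. CD8 T cells with high Gzmk are known in tumours and inflamed tissue as antigen-experienced cells that make the chemokine Ccl5, and they are usually set apart from terminally exhausted cells, which carry Havcr2 (Tim-3), from cells with NK receptors such as Klre1, and from progenitor exhausted cells, which carry Tcf7 with Pdcd1. Type I and II interferons act on T cells and raise the interferon-stimulated genes, a family of antiviral effectors.

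The hashtags bear on every result and are given first. In NT day 1, the tag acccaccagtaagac was named Red in the matrices of replicate 1 and Green in those of replicate 2, and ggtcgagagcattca was named the other way round. The same exchange held for all 6 conditions, while the labels give each tag the same colour in both replicates. Red and green below follow the matrices, and values under the labels' colours, which reverse every replicate 2 sample, are given where colour is compared.

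T cell receptor (TCR) sequences crossed the replicates under the same tag. Between the 2 replicates of a condition, 65 pairs of alpha and beta CDR3 sequences were shared by samples with the same tag, in 10 of 12 pairs of samples. Samples with different tags shared 4, although about as many sequence pairs were compared (91428 with the same tag and 92973 with different tags). The red and green samples of a pool shared 6, and samples of different conditions 3. No cell barcode was shared between wells. Of 71 paired sequences in Gzmk-high cells, 8 were in 2 or more hashed samples, and all 8 were in 1 condition, under 1 tag, and named red in one replicate and green in the other. The replicate pools therefore cannot be taken as separate animals, and p-values below measure only the spread between these cell sums.

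The following receptors carry that finding and the likeness between receptors taken up further on. The first pair was in Gzmk-high cells only, 2 cells of FTY720 replicate 1 (red) and 1 of FTY720 replicate 2 (green). The second set has a single beta chain with 3 alpha chains that differ only in the capital letters. The third has beta chains that differ only in the capital letter, A15C counted from the 5′ end of the CDR3. Each was found in a cell with the same TRAV3N-3 alpha chain. The beta chain with A had that alpha chain in 1 Gzmk-high cell of RT day 1 replicate 2 and a TRAV6N-5 alpha chain in 2.
FTY720 beta, TRBV1 and TRBJ2-5: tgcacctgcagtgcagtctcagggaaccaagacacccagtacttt
FTY720 alpha, TRAV14N-2 and TRAJ16: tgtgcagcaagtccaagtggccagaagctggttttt
Beta, TRBV19 and TRBJ2-7: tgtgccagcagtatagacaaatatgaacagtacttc
Alpha, TRAV6-7-DV9 and TRAJ53, NT day 1 replicate 1: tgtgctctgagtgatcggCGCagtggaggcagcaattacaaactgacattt
Alpha, TRAV6-7-DV9 and TRAJ53, NT day 1 replicate 2: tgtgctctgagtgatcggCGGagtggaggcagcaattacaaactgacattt
Alpha, TRAV6-7-DV9 and TRAJ53, RT day 1 replicate 2: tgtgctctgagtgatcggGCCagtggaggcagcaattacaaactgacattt
Beta, TRBV29, RT day 1 replicate 2: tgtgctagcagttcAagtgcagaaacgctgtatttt
Beta, TRBV29, RT with FTY720 day 3 replicate 2: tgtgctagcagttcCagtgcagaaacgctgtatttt

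Of the label's markers, Cd8a, Cd8b1 and Gzmk belong to the rule and only Ccl5 lies outside it. All 93 cells had UMIs of Ccl5 and of the T cell receptor subunit Cd3e, and all 93 had both Cd8a and Cd8b1. Gzmk ran from 3 to 40 UMIs a cell with a median of 7, and 18 cells held exactly 3. A Pdcd1 UMI was present in 44 cells (47.3%) and a Tcf7 UMI in 30 (32.3%), never both, by the rule. Of 890 cells with Cd4 and no Cd8, 3.82% held at least 3 Gzmk UMIs, with up to 13 in a cell. Of the 1566 CD8-lineage cells, 329 did. The cells with Cd4 had a median of 16579 UMIs and the Gzmk-high cells 16134. Whether the Gzmk of the cells with Cd4 is background was not tested.

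Markers of other cells were low in sum but not absent. The B cell genes Cd79a and Ms4a1 had no UMI in Gzmk-high cells (3 of 6 listed genes present, 0 to 73.5 CPM summed, where CPM are UMIs per 1000000 UMIs of a sum), and of the NK cell list Ncr1 and Klra8 had none (4 of 6 present, 6.44 to 250, Gzma included). The myeloid genes H2-Aa, C1qc, Csf1r, S100a8 and S100a9 had none (9 of 14 present, 62.3 to 129), nor had Krt8, Krt19, Col3a1, Dcn and Sparc of the tumour and stroma list (3 of 8 present, 0 to 12.9). The median sums of Gzmk-high cells were 91.8 CPM for the myeloid and 67.4 for the NK list. CD8-lineage cells with 0 to 2 Gzmk UMIs that met the other criteria had lower medians of 84.1 and 18.4. Those with Havcr2 had higher ones, 195 and 583. The CD4 and Treg list, whose Cd4 and Foxp3 are at 0 by the rule, summed to 0 to 104, and of the 3 gamma delta genes measured Trdv4 and Sox13 had none.

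Gzmk at 3 or more UMIs was not the mark of a single kind of cell. Of the 329 CD8-lineage cells that met it, 28.3% were Gzmk-high cells, 45.9% held Havcr2, 15.5% held Klre1 and 10.3% held Tcf7 with Pdcd1. The remaining CD8-lineage cells fell into 4 comparison classes: 668 Havcr2+ cells, 256 Klre1+ cells without Havcr2, 135 Tcf7+ Pdcd1+ cells, and 414 Gzmk-low cells, which met every other criterion and had 0 to 2 Gzmk UMIs. Median UMIs a cell were lowest in Gzmk-high cells (16134) and 19639, 23164 and 25527.5 in Gzmk-low, Klre1+ and Havcr2+ cells. The part of this depth gap in zero counts of the rule genes was not tested.

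The cells just outside the Gzmk threshold were much like those just inside it in several genes, and the 367 cells with no Gzmk were not. Levels are CPM of the UMIs summed over all cells of a bin, described without a test. Ccl5, a chemokine that draws T cells and myeloid cells, stood at 822 CPM with no Gzmk UMI, at 5242 and 5045 with 1 and 2, and at 4253, just inside, with 3, then reached 8419 in cells with more than 10. Cxcr6, a receptor of tissue-resident cells, went from 101 to 311, 374 and 504 over the same first 4 bins.

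Lymph node genes ran the other way. The node-homing chemokine receptor Ccr7 was 305 CPM in cells with no Gzmk, 37.4 and 56.4 with 1 and 2 UMIs, and 75.04 with 3. Il7r, the receptor for the survival cytokine interleukin-7, differed in where it dropped: it was 368 with 0 Gzmk UMIs and 355 with 1, and 56.4 with 2. The Gzmk-low class is thus mostly cells with no Gzmk (367 of 414), and the contrast below is mainly with those.

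**Figure D1:**
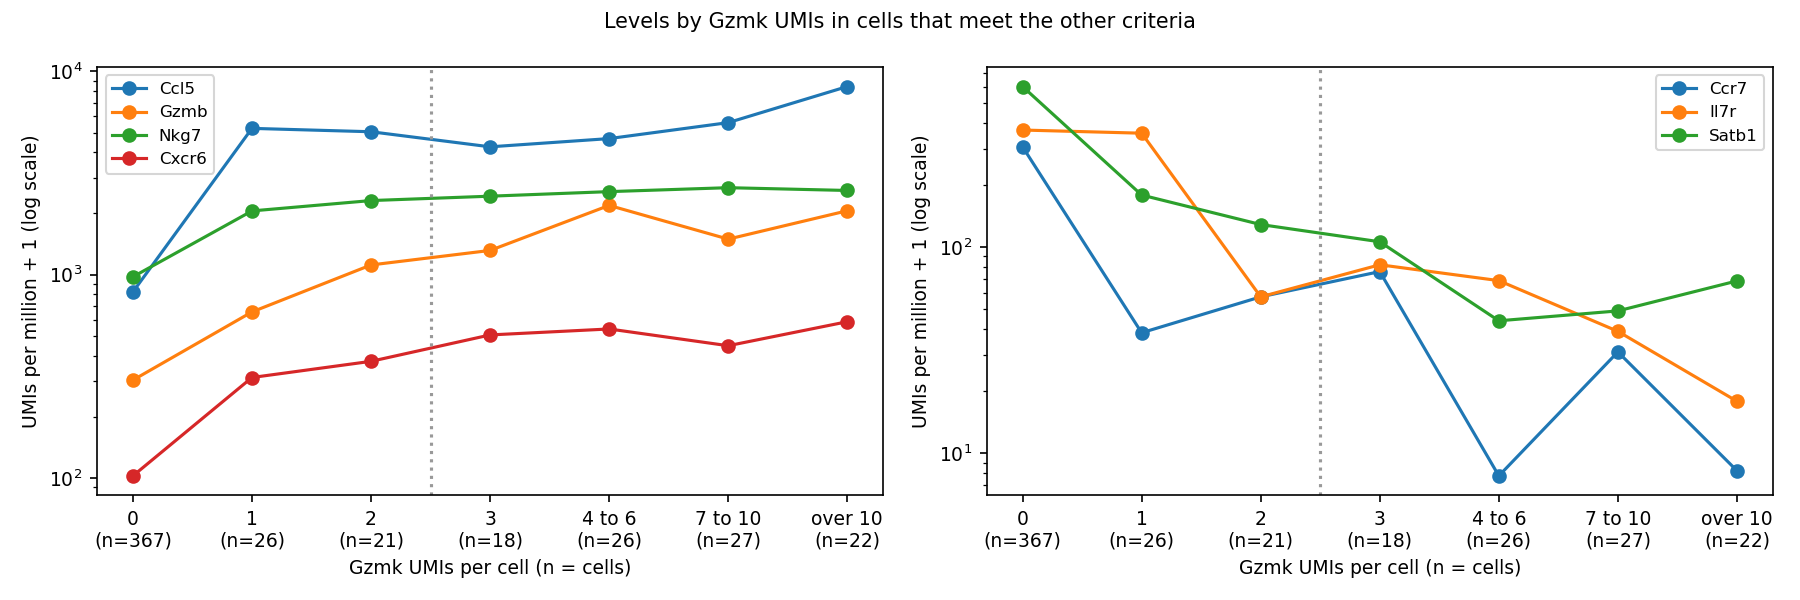
CPM + 1 of the summed UMIs (log axis) of selected genes against the number of Gzmk UMIs in a cell, for Gzmk-low cells (0, 1 and 2 UMIs) and Gzmk-high cells (3 and more), with the number of cells in each bin and a dotted line at the threshold. Between 0 and 1 UMI, Ccl5 goes from 822 to 5242 and Cxcr6 from 101 to 311, while Ccr7 goes from 305 to 37.4.

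For the tests, UMIs were summed per pool and class, and 7 pools had at least 5 Gzmk-high cells: both replicates of NT day 1, of RT day 1 and of NT day 3, and FTY720 replicate 1. The sums of Gzmk-high cells held 70135 to 355944 UMIs. Each class was compared within pools by edgeR's quasi-likelihood test with Benjamini-Hochberg adjustment over all genes tested, a change being called at an adjusted p below 0.05. Since all genes come from the cells that the rule sorted, these tests say how the sorted classes differ and are not independent evidence that the class exists. Values are CPM of the pool sums, as mean ± SD over 7 pools. Log2 differences carry a standard error worked back from the test, as the size of the difference over the square root of its F value.

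Against Gzmk-low cells, 302 genes (6.02%) were higher and 341 (6.79%) lower in Gzmk-high cells, so that 12.8% of the 5020 genes tested were called. The Gzmk-high cells had more of the effector chemokines, of several granule proteins, of receptors for inflamed tissue, of inhibitory receptors and of interferon-stimulated genes. They had less of the lymph node and naive genes.

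Of the chemokines, Ccl5 lay between 2553 and 13973 CPM in Gzmk-high cells (median 5659) and between 10.5 and 2561 in Gzmk-low cells (median 1117). It was higher in 7 of 7 pools, by 2.28 ± 0.55 on the log2 scale (adjusted p = 0.012), with 13973, the highest value, in FTY720 replicate 1. The macrophage inflammatory proteins Ccl3 and Ccl4 were higher by 1.93 ± 0.36 and 1.91 ± 0.40, each in 6 of 7 pools. Xcl1, which attracts cross-presenting dendritic cells, was lower, at 41.7 ± 60.6 against 141 ± 171 CPM. The chemokine list therefore had 3 higher and 1 lower of 5 tested, with a median of 1.91 against -0.01 over all genes.

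Of the granule proteins, 5 of 7 tested were higher and 0 lower (median 0.63). Gzmb, the granzyme that activates caspases in target cells, ran from 673 to 3312 CPM (median 1271), where Gzmk-low cells ran from 63.1 to 805 (median 128). The pool ranges overlapped, but Gzmb was higher in 7 of 7 pools, by 2.69 ± 0.41 (adjusted p = 0.00054). Nkg7, needed for granule release, did not overlap between the classes, at 2044 to 2922 against 891 to 1544 CPM. Fasl, the death ligand, was higher by 1.72 ± 0.27, and Srgn and Ctsw by 0.63 ± 0.11 and 0.56 ± 0.13. The pore-forming perforin Prf1 did not pass the test, at 0.30 ± 0.25 (adjusted p = 0.48).

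The homing and adhesion list had 8 higher and 5 lower of 17 tested (median 0.26). Itga1, the collagen-binding integrin of resident T cells, lay at 55.6 to 315 CPM (median 237) against 3.51 to 49.1 (median 31.6). It did not overlap between the classes and was higher by 2.87 ± 0.20 (adjusted p = 1.2e-06), the largest rise among the genes the naming rule selected. The inflammatory chemokine receptors Ccr2, Cxcr6 and Cxcr3 were higher by 2.56 ± 0.39, 1.94 ± 0.17 and 0.73 ± 0.17, and the integrin subunits Itga4, Itgb1 and Itgal by 1.51 ± 0.24, 0.92 ± 0.25 and 0.50 ± 0.14.

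The lower members of that list included Ccr7, S1pr1, Cxcr4 and Itgb7. Ccr7 stood at 0 to 66.1 CPM in Gzmk-high cells and at 126 to 357 in Gzmk-low cells, so the classes did not overlap. S1pr1, the receptor that FTY720 engages and that leads T cells out of nodes, stood at 32.0 ± 18.3 against 128 ± 38.5 CPM. Their log2 differences were -3.37 ± 0.39 and -2.06 ± 0.26.

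Of the naive and memory list, 0 were higher and 9 lower of 14 tested (median -1.65). Besides Ccr7 these included Satb1, a chromatin organiser of naive T cells (59.9 ± 40.5 against 524 ± 123 CPM, log2 difference -3.25 ± 0.26), and Il7r (44.2 ± 29.0 against 346 ± 158 CPM, -3.08 ± 0.23). The transcription factors Lef1, Bach2 and Klf2, which hold T cells in a quiescent state, were lower by -2.15 ± 0.17, -2.14 ± 0.22 and -1.98 ± 0.39 on the log2 scale. Genes outside the lists with the largest falls were Dapl1 (-3.84 ± 0.44), Il6ra, a receptor subunit for interleukin-6 (-3.19 ± 0.38), Cmah (-2.94 ± 0.32), Pde2a (-2.84 ± 0.47), the TCR segment Trbv13-3 (-2.78 ± 0.61) and Nsg2 (-2.74 ± 0.33).

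Of the inhibitory receptors, 5 of 8 tested were higher and 0 lower (median 1.25). The ectonucleotidase Entpd1 (CD39), which breaks down extracellular ATP, was higher by 2.36 ± 0.22, the receptor Lag3 by 2.10 ± 0.23, Tigit by 1.61 ± 0.30 and Ctla4 by 1.39 ± 0.23. The transcription factor Tox, which sustains the exhausted state, was higher by 1.11 ± 0.19. Of the CD8 transcription factors, 5 were higher and 2 lower of 13 tested (median 0.56), led by Id2, an effector regulator, at 958 to 1385 CPM against 35.1 to 402. Tbx21 (T-bet) was higher by 1.00 ± 0.18, while Eomes, often paired with Gzmk in CD8 T cells, did not pass the test at -0.90 ± 0.34 (adjusted p = 0.10).

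Ifng was higher by 1.62 ± 0.28 (335 ± 117 against 108 ± 66.1 CPM), and Fgl2, Hip1 and Glrx were the other genes among the 10 largest rises, at 2.39 ± 0.32, 2.22 ± 0.19 and 2.09 ± 0.23. Of the cell cycle list, Mki67 and Hmgb2 were higher and 0 lower of 11 tested. None of 7 p53 targets passed the test. Leaving out NT day 1 replicate 2 or RT day 1 replicate 2 reduced the 643 calls to 398 and 366.

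**Figure D2:**
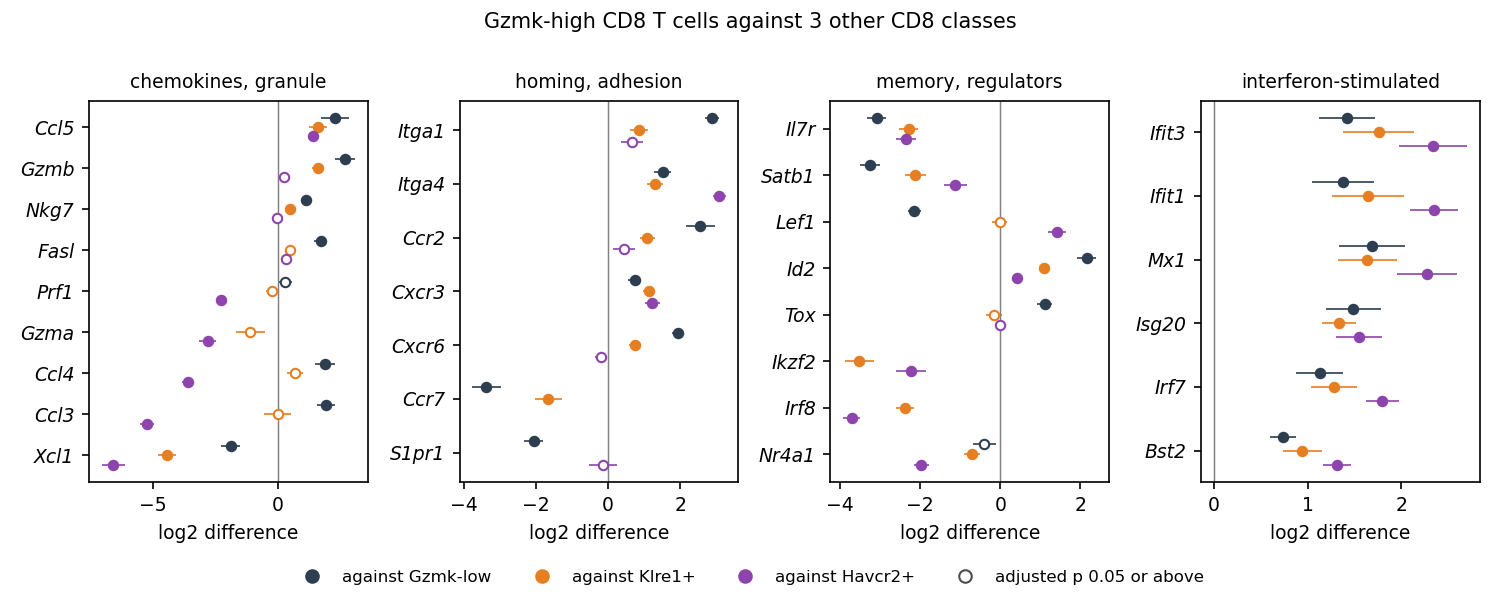
Log2 difference in CPM of Gzmk-high cells from Gzmk-low, Klre1+ and Havcr2+ cells (points, with standard error bars) for genes of 4 groups of lists; open points have an adjusted p of at least 0.05, and a gene without a point was not tested in that comparison. Ccl5 lies above 0 against all 3 classes (2.28, 1.62 and 1.41), while Xcl1 lies below 0 against all 3 (-1.89, -4.44 and -6.59).

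Against Klre1+ cells, 221 genes (4.72%) were higher and 207 (4.42%) lower, in all 9.14% of the 4681 genes tested. The Gzmk-high cells had higher interferon-stimulated genes, Ccl5, Gzmb and inflammatory chemokine receptors, and less of Xcl1, of the other NK receptors, of activation genes and of glycolytic enzymes. Most of these calls went when the comparison was limited to the Klre1+ cells that also met the Gzmk threshold: 8 genes, all lower in Gzmk-high cells, passed over the 4 pools that remained. That comparison had fewer cells and pools, and the cause of the loss was not tested.

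Xcl1 was the gene furthest apart, with 0 to 154 CPM in Gzmk-high cells (median 12.9) and 175 to 1495 in Klre1+ cells (median 807). The classes did not overlap, and the log2 difference was -4.44 ± 0.38 (adjusted p = 6.9e-06). Ikzf2 (Helios), a transcription factor of innate-like and regulatory T cells, followed at 15.4 ± 15.2 against 231 ± 70.0 CPM. The chemokine Ccl5 was higher by 1.62 ± 0.36 (309 to 5326 CPM in Klre1+ cells) and Gzmb by 1.60 ± 0.24. Against Klre1+ cells with at least 3 Gzmk UMIs, Ccl5 stood at -0.39 and Gzmb at 0.20, neither past the threshold.

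Of the NK receptors other than Klre1, 4 of 5 tested were lower and 0 higher (median -1.60). These were the activating receptor NKG2D, Klrk1 (-1.77 ± 0.21), and the CD94/NKG2 chains Klrc1, Klrc2 and Klrd1 (-1.66 ± 0.28, -1.60 ± 0.26 and -1.49 ± 0.18). Klre1 itself was at 0 by the rule. Of the early activation list 4 of 12 were lower and 0 higher, among them the costimulatory receptor Tnfrsf9 (4-1BB, -2.17 ± 0.36) and Irf8 (-2.37 ± 0.23). The TNF family ligand Tnfsf8 was lower by -2.49 ± 0.31 on the log2 scale.

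The homing list had 6 higher and 4 lower of 16 tested. Among those higher, Itga4, Cxcr3, Ccr2, Itga1 and Cxcr6 differed by 1.30 ± 0.23, 1.12 ± 0.17, 1.09 ± 0.20, 0.85 ± 0.24 and 0.74 ± 0.16. Among those lower, Ccr7, Cx3cr1 and Cd44 differed by -1.66 ± 0.36, -1.32 ± 0.37 and -0.79 ± 0.19 on the log2 scale. The naive and memory list had 1 higher, Ly6c2 (3038 ± 1103 against 1246 ± 524 CPM), and 6 lower of 14, with Il7r at 44.2 ± 29.0 against 202 ± 84.7 CPM.

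The inhibitory receptor list split, with Cd38 and Entpd1 higher and 4 of 9 lower, among them Lag3 (-1.25 ± 0.30), Cd160 (-1.25 ± 0.32) and Rgs16, a regulator of G protein signalling (-3.13 ± 0.25). Id2 and Runx3 were higher by 1.08 ± 0.12 and 0.58 ± 0.13. Of the glycolysis and hypoxia list, 5 of 12 were lower and 0 higher, including Tpi1, Ldha, Pgam1 and Hif1a. The other genes among the 10 largest falls were Adamts6, St6galnac3, Xdh and Setbp1, at -2.64 ± 0.27, -2.52 ± 0.41, -2.37 ± 0.32 and -2.35 ± 0.42. Leaving out NT day 1 replicate 2 or NT day 3 replicate 2 took the 428 calls to 229 and 259.

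Against Havcr2+ cells, 494 genes were higher and 494 lower (9.71% each), in all 19.4% of the 5089 genes tested. Gzmk-high cells had little of the cytokines, the other chemokines, the activation genes and the glycolytic enzymes of the Havcr2+ cells, and more of the interferon-stimulated genes and of Itga4. Gzmb did not pass the test, at 673 to 3312 against 720 to 2186 CPM (0.24 ± 0.19, adjusted p = 0.43). Against the Havcr2+ cells with at least 3 Gzmk UMIs, Gzmb was called lower, at -0.40 (edgeR, adjusted p = 0.040).

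All 9 cytokine and TNF family genes tested were lower (median -2.56). Ifng, the main macrophage-activating cytokine of these cells, lay at 217 to 567 CPM (median 341) in Gzmk-high cells and at 938 to 8297 (median 3034) in Havcr2+ cells. The classes did not overlap, and the log2 difference was -3.36 ± 0.25 (adjusted p = 6.4e-08). The growth factor Csf2 (GM-CSF) had 1 UMI in all Gzmk-high sums together, which makes it 238-fold lower with a 95% counting interval of 42.7 to 9419. Csf1 had 3 UMIs and was 77.4-fold lower (26.5 to 376). Tnf was lower by -1.13 ± 0.33 on the log2 scale, in 7 of 7 pools. Against Havcr2+ cells with at least 3 Gzmk UMIs, Tnf stood at -0.45 and did not pass the test, while Ifng still did at -1.71.

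Of the chemokines, Ccl5 was higher by 1.41 ± 0.22 in 7 of 7 pools and 4 of 5 tested were lower. Ccl3 ran from 10.1 to 195 CPM against 1049 to 6225, Ccl4 from 217 to 801 against 2684 to 12714, and Xcl1 from 0 to 154 against 1958 to 5687, with no overlap in any of these. Ccl1 had 1 UMI in Gzmk-high cells and was 2295-fold lower (412 to 90646). Against Havcr2+ cells with at least 3 Gzmk UMIs, the difference in Ccl5 was 0.24 and no longer passed the test, and the total came to 351 calls.

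The granule genes Gzma, Prf1 and Srgn were lower and 0 of 8 higher. Gzma, a tryptase-like granzyme as Gzmk is, lay at 6.44 to 242 CPM (median 64.6) against 165 to 1306 (median 422), and Prf1 at 31.2 to 128 against 252 to 633. Prf1 did not overlap between the classes, and both were lower in 7 of 7 pools. The early activation list had 9 of 13 lower and 0 higher (median -1.80). Tnfrsf9 stood at 0 to 135 against 733 to 1039 CPM, the orphan nuclear receptors Nr4a1, Nr4a2 and Nr4a3 were lower by -1.97 ± 0.19, -1.80 ± 0.22 and -2.12 ± 0.22 on the log2 scale, and Egr2 by -4.33 ± 0.46.

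Integrin alpha 4, Itga4, which pairs with Itgb1 or Itgb7 to bind inflamed endothelium, had the largest rise of the homing genes against Havcr2+ cells. It stood at 435 to 1326 CPM (median 698) in Gzmk-high cells, 36.0 to 118 (median 75.4) in Havcr2+ cells, 138 to 535 in Klre1+ cells and 116 to 336 in Gzmk-low cells. The difference from Havcr2+ cells was 3.08 ± 0.18 (adjusted p = 2.1e-09), with no overlap. Cxcr3 was higher by 1.23 ± 0.20, and Ccr8, the receptor named in the study's title, was listed at 0 to 18.4 against 85.2 to 194 CPM. Against Havcr2+ cells with at least 3 Gzmk UMIs, Itga4 stood at 1.75 and passed, while Cxcr3 stood at 0.65 and did not. The homing list had 3 higher and 3 lower of 16 tested.

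The naive and memory list had 3 higher (Ly6c2, Lef1 and the survival factor Bcl2, at 2.06 ± 0.26, 1.42 ± 0.22 and 1.33 ± 0.15) and 5 lower of 12. Among those lower was Il7r, at 44.2 ± 29.0 against 249 ± 68.9 CPM, so that Il7r was lower in Gzmk-high cells than in each of the 3 classes compared. Of the inhibitory list, Cd38 was higher and 6 of 12 were lower, with Rgs16, Lag3 and Tigit at -4.97 ± 0.27, -2.02 ± 0.26 and -1.23 ± 0.26. Of the transcription factors, Eomes (1.37 ± 0.35), Id2 and Runx3 were higher and 5 of 17 lower, among them Irf4, a factor induced by TCR signals (-2.32 ± 0.27). Eomes stood at -0.19 against Havcr2+ cells with at least 3 Gzmk UMIs.

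Of the glycolysis and hypoxia list 11 of 12 were lower and 0 higher (median -0.83), led by Hif1a at -1.36 ± 0.12. All 5 NK receptors called were lower, of 6 tested. Klrh1 and Styk1 had 0 UMIs in Gzmk-high cells and were at least 58.9-fold and 35.2-fold lower than in Havcr2+ cells, counting 0 as 3 UMIs over the group. The TCR segment Trbv26 had 0 UMIs too, at least 54.6-fold lower. Nrgn and Tnfrsf4, with 1 and 3 UMIs, were 275-fold (49.3 to 10870) and 60.9-fold (20.8 to 296) lower.

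The interferon-stimulated list was higher in Gzmk-high cells than in all 3 classes. It had 16 of 25 tested higher and 0 lower against Gzmk-low cells (median 0.98), 17 of 23 and 0 against Klre1+ cells (median 1.16), and 22 of 22 against Havcr2+ cells (median 1.65), where 12.8%, 9.14% and 19.4% of all genes were called. The 28 listed genes summed to 4449 to 11558 CPM in Gzmk-high cells (median 6813). Gzmk-low cells summed to 1771 to 7216 (median 3488), Klre1+ cells to 1771 to 6208 (median 2964) and Havcr2+ cells to 1853 to 3648 (median 2501). Havcr2+ cells did not overlap with Gzmk-high cells. The Tcf7+ Pdcd1+ cells, at 4475 to 10206 over 6 pools (median 6399), lay in the range of the Gzmk-high cells, and that difference was not tested.

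Single genes followed the sum. Ifit3, an inhibitor of viral RNA translation, stood at 71.3 to 891 CPM (median 415) in Gzmk-high cells, against medians of 124, 88.0 and 77.4 in Gzmk-low, Klre1+ and Havcr2+ cells. Its differences were 1.42 ± 0.30, 1.76 ± 0.38 and 2.34 ± 0.36, with overlapping ranges in each case. Irf7, the regulator that amplifies the interferon response, ran from 207 to 385 CPM, where the other classes reached at most 248, 253 and 166. The dynamin-like antiviral Mx1 was higher by 1.69 ± 0.35, 1.64 ± 0.31 and 2.27 ± 0.32 against these classes. Isg15, a ubiquitin-like modifier, passed against Havcr2+ cells (1.48 ± 0.35) and missed against Klre1+ cells (1.03 ± 0.33, adjusted p = 0.067).

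Interferon-regulated genes from outside the list were among the 10 largest rises too. Iigp1, an interferon-inducible GTPase, was higher by 2.67 ± 0.46 against Klre1+ cells and 3.78 ± 0.37 against Havcr2+ cells (92.3 ± 48.1 against 6.01 ± 5.08 CPM). Gbp10 was higher by 1.88 ± 0.26 and 2.81 ± 0.27, Ifit1bl1 by 1.71 ± 0.35 and 2.49 ± 0.24, and Ube2l6, a conjugating enzyme for Isg15, by 1.70 ± 0.24 and 2.24 ± 0.24. Against Klre1+ cells with at least 3 Gzmk UMIs, 0 of 24 listed genes passed the test (median 0.75), and against such Havcr2+ cells 22 of 23 did (median 1.22). Without single pools or under the other settings against Gzmk-low cells, 10 to 19 listed genes were called.

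By pool, the Gzmk-high sums of the list were 6559 and 8119 CPM in NT day 1, 6813 and 11558 in RT day 1, 4449 and 6881 in NT day 3, and 6103 in FTY720 replicate 1. The highest pool was RT day 1 replicate 2, and RT day 1 replicate 1 lay within the range of NT. Too few Gzmk-high cells were found at day 3 after radiation for a test. There, 1 cell of RT replicate 1 stood at 8711, 1 red and 1 green cell of RT replicate 2 at 29154 and 26805, and the 4 cells of RT with FTY720 replicate 2 together at 24139. Over all CD8-lineage cells, the hashed samples ran from 8781 to 16293 in RT day 3 and from 8831 to 15641 in RT with FTY720. In FTY720 alone, of the same wells, they ran from 2478 to 6052, and in NT day 3, of another well, from 3022 to 3551. Whether Gzmk-high cells differed from other CD8-lineage cells at day 3 after radiation was not tested.

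**Figure D3:**
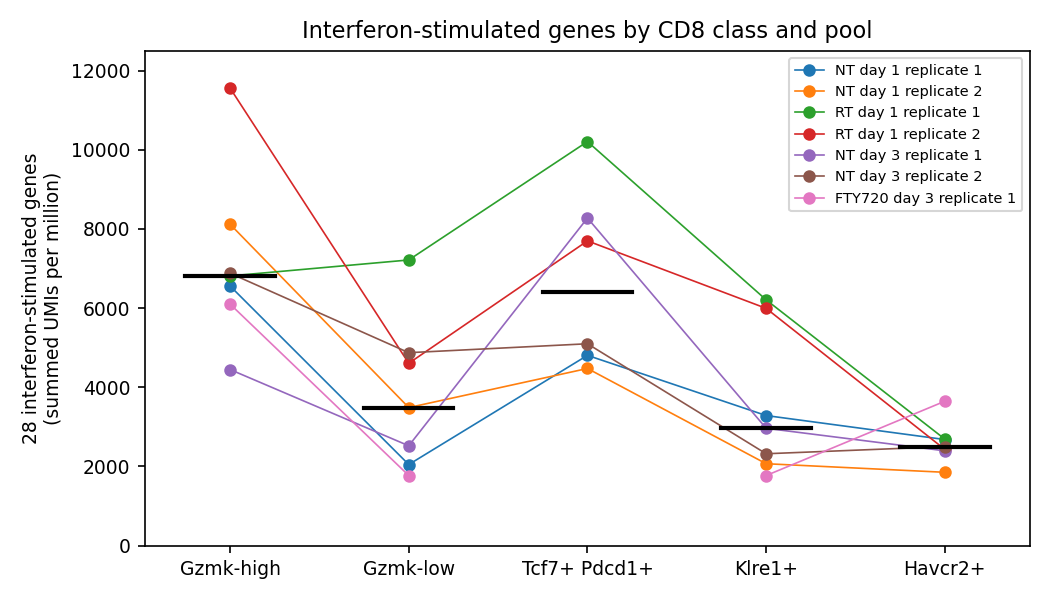
Summed CPM of 28 interferon-stimulated genes per pool (points joined by pool) in 5 classes of CD8-lineage cells, with a black bar at the median over the pools shown; a class with too few cells in a pool has no point. Gzmk-high cells (4449 to 11558) and Tcf7+ Pdcd1+ cells (4475 to 10206) lie above Havcr2+ cells (1853 to 3648).

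The promoters of the listed genes were searched for the interferon-stimulated response element, to which the interferon-activated factors bind. It was spelled as GAAANNGAAA and looked for on both strands (TTTCNNTTTC in the other reading) in the 250 bases before each start in RefSeq promoters (GRCm38.p6). It was found in 11 of the 21 listed genes with a promoter entry (52.4%) and in 936 of 27025 genes of the table (3.46%). A match describes these letters only. The 4 windows below, each 40 bases on the gene's strand with the match in capitals, belong to genes of the list, and overlapping matches were counted once per gene.
Ifit1, chr19:34640770-34640809, plus strand: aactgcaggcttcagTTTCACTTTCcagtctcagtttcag
Ifit3, chr19:34583358-34583397, plus strand: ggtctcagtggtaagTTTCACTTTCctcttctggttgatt
Isg15, chr4:156200860-156200899, minus strand: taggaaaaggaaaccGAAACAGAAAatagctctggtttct
Gbp2, chr3:142620589-142620628, plus strand: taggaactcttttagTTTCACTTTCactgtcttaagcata
The match lay 104 to 95 bases before the start of Ifit1, 156 to 147 before Ifit3, 66 to 57 before Isg15 and 59 to 50 before Gbp2. Ifit1, Ifit3 and Gbp2 share the 10 letters TTTCACTTTC.

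The comparison of RT with NT at day 1 addressed the state of Gzmk-high cells a day after radiation. Of 5537 genes tested over sums of 6 to 22 cells, 5 were higher after RT and 0 lower, 0.0903% of the genes, and 248 had an unadjusted p below 0.05. Fitted with 1 mean per condition (edgeR, 2 pools against 2, with 3 residual degrees of freedom over the 7 pools), the 5 were Ccng1, Bax, Ptp4a3, Exoc4 and Rps19. Ccng1 and Bax are targets of p53, the transcription factor that DNA damage activates.

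Ccng1 (cyclin G1) stood at 502 and 553 CPM in RT replicates 1 and 2 and at 91.8 and 124 in NT, a log2 difference of 2.31 ± 0.30 (adjusted p = 0.0076). Bax, which opens the mitochondrial outer membrane in apoptosis, stood at 631 and 556 against 140 and 142 (2.09 ± 0.28, adjusted p = 0.0076). The groups of 2 pools did not overlap in either gene, and they did not overlap in 1718 of the 5537 genes tested. The phosphatase Ptp4a3 was higher by 2.08 ± 0.33, the exocyst subunit Exoc4 by 1.96 ± 0.32 and the ribosomal protein Rps19 by 1.16 ± 0.17, with 4572 and 4773 against 2358 and 1908 CPM for Rps19.

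Of the p53 list, 2 of 15 tested were called, with a median of 2.09 against 0.00 over all genes and 14 of 15 above 0. The cell cycle inhibitor Cdkn1a (p21) was at 193 and 180 against 7.35 and 38.0 CPM, and missed the threshold (3.01 ± 0.53, adjusted p = 0.054). The apoptosis activator Bbc3 (Puma) was at 83.7 and 75.9 against 0 and 3.46, with an adjusted p of 0.057. Of the cell cycle list 0 of 23 were called, with a median of -2.41 and 21 of 23 below 0. The proliferation marker Mki67 stood at 32.2 and 25.3 against 268 and 325 CPM (-3.37 ± 0.65, adjusted p = 0.076), and the mitotic motor Kif11 at 0 and 8.43 against 84.5 and 121. Of the interferon-stimulated list 0 of 26 were called (median 0.34).

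These calls depended on how cells were assigned to pools and on single pools. With pools formed by tag in place of replicate, 1 gene was called, a lower one, and all 5 had an adjusted p of 1. Under the tag named red in replicate 1, the 23 irradiated Gzmk-high cells had 687 CPM of Ccng1 and 726 of Bax. The 6 irradiated cells under the other tag had 107 and 152, near the 89.2 to 119 and 131 to 159 of the NT cells. Mki67 stood at 34.2 CPM in the irradiated and 14.9 in the NT cells under the former tag, and at 7.62 and 456 under the latter. Kif11 stood at 7.90 and 14.9 under the former and at 0 and 153 under the latter, so the NT levels of both genes came mainly from cells of that tag, and under the former Mki67 was not lower after RT. Without NT day 1 replicate 1, or without NT day 1 replicate 2, 3 genes passed and none of the 5 did.

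The 22 listed p53 targets summed to 2775 and 2708 CPM in RT day 1 and to 874 and 995 in NT day 1, and to 729 to 844 in the other 3 pools. By hashed sample, the irradiated cells of replicate 1 had 3183 in 6 red cells and 927 in 1 green cell, and those of replicate 2 had 1017 in 5 red cells and 3399 in 17 green cells. The high samples were therefore red in one replicate and green in the other, under the same tag. Over all CD8-lineage cells, green samples were higher in 6 of 6 irradiated pools (1059 to 2280 against 811 to 1645) and in 3 of 6 others by the matrices' colours, and in 3 of 6 and 2 of 6 by the labels' colours. In RT day 1 the p53 list stood at 2004 and 1654 in Klre1+ cells, 1427 and 1552 in Gzmk-low cells and 1651 and 1238 in Havcr2+ cells, and whether Gzmk-high cells differed from them in response was not tested.

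**Figure D4:**
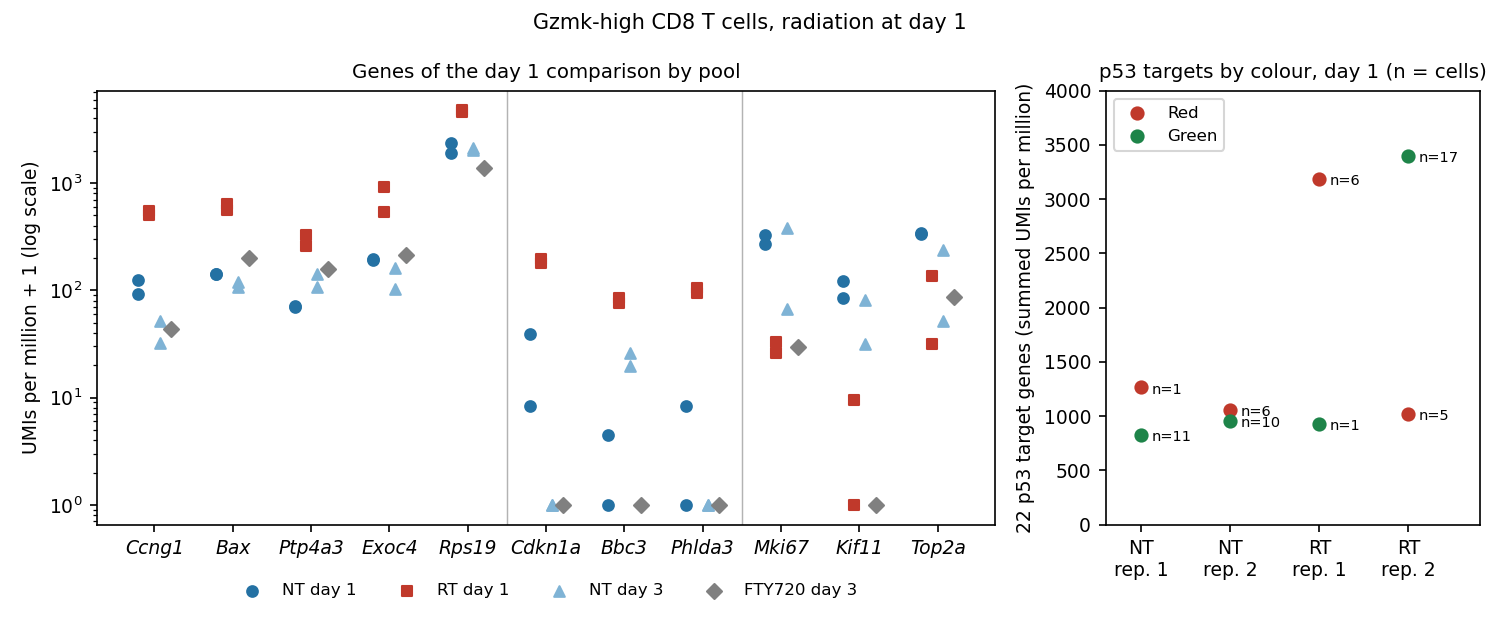
Left, CPM + 1 (log axis) of p53 targets, other called genes and cell cycle genes in Gzmk-high cells. The pools are those of NT and RT day 1, NT day 3 and FTY720 day 3 replicate 1. Right, summed CPM of 22 p53 targets in the Gzmk-high cells of each day 1 pool and colour, with the number of cells. Bax stands at 631 and 556 after RT against 140 and 142, and the high p53 sums are red in replicate 1 (3183) and green in replicate 2 (3399).

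NT day 3 and NT day 1, which differ in time alone by their labels, gave 0 calls of 5537 genes with edgeR and 0 with DESeq2 (0% of genes; 228 with an unadjusted p below 0.05 with edgeR). Gzma stood at 21.98 ± 4.66 at day 3 and 197 ± 63.9 CPM at day 1 (-3.09 ± 0.62, adjusted p = 0.386), Ccl3 at 30.0 ± 28.1 and 182 ± 17.9, and the antiviral Rsad2 at 35.2 ± 14.6 and 194 ± 0.775, each over 2 pools. Ccl5 was at 3074 ± 737 and 6153 ± 698 CPM (-0.97 ± 0.23, adjusted p = 0.734). The interferon-stimulated list had 23 of 26 values below 0, with a median of -0.57 and none called. In simulated counts of this design, 9% of 2-fold and 70% of 4-fold changes were called, so 0 calls leave 2-fold changes undecided.

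Red and green Gzmk-high cells could be compared in 2 pools with at least 5 cells of each colour, with 1 residual degree of freedom. No gene of 2917 passed in edgeR (0%), 178 had an unadjusted p below 0.05, and DESeq2 called 1. The median of the interferon-stimulated list was 0.18 (red minus green) and that of the p53 list -0.99. Both pools, NT and RT at day 1, were of replicate 2, so by the labels' colours both differences have the opposite sign.

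The share of Gzmk-high cells among CD8-lineage cells was 10.1% and 4.69% in NT day 1 (12 of 119 and 16 of 341 cells) and 6.14% and 9.09% in RT day 1 (7 of 114 and 22 of 242). It was 4.82% and 3.19% in NT day 3 and 3.57% and 4.08% in RT day 3, where only 1 of 28 and 2 of 49 cells were found. It was 24.0% and 6.56% in FTY720 day 3 (6 of 25 and 4 of 61), and 0% and 8.70% in RT with FTY720 day 3. The 0 of 30 cells there had an exact (Clopper-Pearson) 95% upper limit of 11.6%. The 24.0% of FTY720 replicate 1 had an exact (Clopper-Pearson) 95% interval of 9.36 to 45.1%, which like the limit of a 0 covers counting error only.

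The share was 5.26 ± 3.44% in the 6 irradiated pools and 8.89 ± 7.77% in the 6 others. The difference of -3.63 points was within the spread (two-sided exact permutation test within day and drug, p = 0.444, adjusted over 3 tests 0.444; smallest possible p 0.00926). It was -0.72 points without the 24.0% pool. When every cell was thinned to 10000 UMIs, leaving out 308 shallower cells, the difference was -2.33 points, and FTY720 replicate 1 stood at 13.6% in place of 24.0%.

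Gzmk-high cells were a larger share of green than of red CD8-lineage cells by the colours of the matrices. The mean share was 10.5 ± 7.76% in green and 3.92 ± 5.83% in red samples (SD, n = 12 pools), and green was higher in 10 pools, red in 1, with 1 tie. The difference of -6.59 points (red minus green) passed a two-sided exact sign-flip permutation test (p = 0.00293, adjusted over 3 tests 0.00879). That test counts the 12 pools as separate, although the replicates of a condition cannot be taken as separate animals. Its p measures only the spread between these cell sums. In NT day 1 replicate 1 the shares were 1.75% red (1 of 57) and 17.7% green (11 of 62), and in RT day 1 replicate 2 they were 3.97% (5 of 126) and 14.7% (17 of 116). The pool with more red was RT day 1 replicate 1, at 6.52% and 4.55%.

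By the labels' colours the difference was 1.19 points the other way (exact permutation p = 0.662), so the direction rests on which naming holds in replicate 2. Within replicate 1, where both namings are the same, it was -5.40 points (exact permutation p = 0.125), and within replicate 2 by the matrices -7.78 points (exact permutation p = 0.0312, the smallest that 6 pools allow). By the matrices 69.9% of the 93 Gzmk-high cells were green, where 33.8% of Havcr2+, 41.1% of Gzmk-low, 56.3% of Tcf7+ Pdcd1+ and 61.3% of Klre1+ cells were. By the labels 40.9% of the Gzmk-high cells were green, and the other classes stood at 52.8%, 55.3%, 44.4% and 46.1% in the same order.

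**Figure D5:**
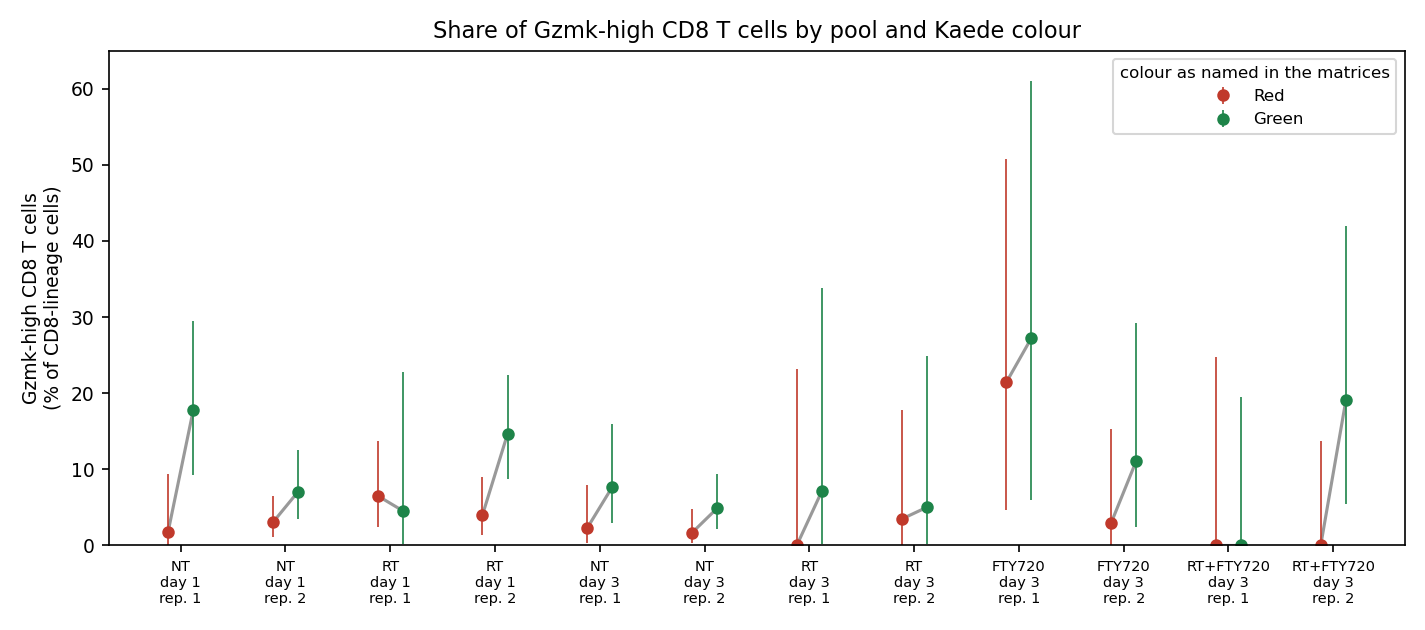
Percent of CD8-lineage cells that were Gzmk-high in the red and green samples of each pool, as named in the matrices, with exact 95% binomial intervals. Green exceeds red in 10 of 12 pools, and FTY720 replicate 1 stands highest in both colours, at 21.4% red and 27.3% green.

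The TCR was read in 89 of the 93 Gzmk-high cells (productive beta chain), with 77 different beta sequences counted by pool. Of the 89 cells, 47.2% had a beta sequence found in at least 1 more cell of the pool, where 9.19% of Gzmk-low, 31.3% of Tcf7+ Pdcd1+, 37.3% of Klre1+ and 60.9% of Havcr2+ cells did. Among pairs of Gzmk-high cells of a pool, 3.81 ± 4.83% shared the beta sequence, and 0.857 ± 0.532% of pairs of other CD8-lineage cells did (n = 7 pools). The difference of 2.95 points, positive in 5 of 7 pools, did not pass a two-sided exact sign-flip permutation test (p = 0.172, adjusted over 3 tests 0.258; smallest possible p 0.0156). With pools formed by tag it was 4.37 points, with an exact permutation p of 0.0469.

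The beta chains of Gzmk-high cells were also found in every other class. Cells of the same pool with the same beta chain, counted by that chain alone, were 14 Gzmk-low cells in 10 beta sequences, 12 Tcf7+ Pdcd1+ cells in 10, 12 Klre1+ cells in 9 and 8 Havcr2+ cells in 7, with 3 cells outside the CD8 lineage. Of these 49 cells, 40 also had an alpha chain of those Gzmk-high cells, 6 had another alpha chain, and 3 could not be compared. The TRBV19 beta chain printed above was in 8 cells of RT day 1 replicate 2, of which 4 were Gzmk-high, 2 Klre1+, 1 Tcf7+ Pdcd1+ and 1 Gzmk-low. That Gzmk-low cell had a TRAV5-4 alpha chain. The GCC alpha chain was in 6 of those 8 cells, 4 of them Gzmk-high. The CGC and CGG alpha chains were in 1 Gzmk-low cell each, of NT day 1 replicates 1 and 2, so the same beta chain came with near-identical alpha chains in different pools. The TRBV29 chains that differ by A15C were in Gzmk-high cells of RT day 1 replicate 2 and of RT with FTY720 day 3 replicate 2.

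By segment, TRBV19 was used in 19.1% of Gzmk-high cells (17 of 89, in 7 pools) and 7.98% of other CD8-lineage cells (110 of 1379), and TRBV29 in 12.4% and 6.09%. Of the alpha segments, TRAV6-3 was used in 7.95% (7 of 88) and 0.598% (8 of 1338), TRAV6-7-DV9 in 9.09% and 2.24%, and TRAJ9 in 11.4% and 2.84%. TRBV26, in 6.82% of other CD8-lineage cells, was in none of the 89. Cells with the same receptor share their segments and were not independent, so these shares are a description with no test.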

How the data were processed

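Gene, hashtag and TCR libraries of 4 10x wells (GEM-X 5' v3) were processed by the submitters with Cell Ranger 8.0.1 and mm39, per the submitters' processing notes. The matrices were deposited as raw UMI counts over 33696 genes, and per the file headers the contig tables give V and J segments, CDR3 sequences and UMI counts. The limits of 500 genes and 10% mitochondrial UMIs left 2740 of 2816 barcodes. Cells were assigned to hashed samples where the top hashtag had at least 20 UMIs and 3 times the next, which called all 2740. No doublet caller was run, 90 cells (4 of them Gzmk-high) had 2 or more beta chains, and results without them are among the alternatives. Median UMIs a cell were 17856.5 to 20915 by well.

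UMIs were summed per pool and class (at least 5 cells) and tested with edgeR 4.0.16 (R 4.3.3; TMM, filterByExpr, quasi-likelihood F test, Benjamini-Hochberg at 0.05), with the pool as a block between classes and colours. The 9 rule genes were left out first; CPM are of the whole sums. Exact tests used scipy 1.17.1. Named were the 10 largest log2 differences in each direction among called genes with a mean of at least 50 CPM in the higher group and the same direction in at least 3 in 4 pools (or groups that did not overlap), list members described as part of their list, the rule genes and Ccl5. The scripts were tested on simulated data. There, comparisons of conditions or colours recovered 9 to 11% of 2-fold changes, and class comparisons 86 to 89%. The rule, the lists and the class comparisons were chosen with earlier results of these data known. Alternatives were DESeq2 1.42.0, its size factors, no filter, other Gzmk and cell minimums, single pools left out, a replicate block, tag pools, green cells only and comparison classes limited by Gzmk. Tag pools, green cells only, the classes limited by Gzmk, at least 3 cells a sum for the colours and the colour share in replicate 2 alone were chosen after seeing the data. Promoter sequences are RefSeq's (GRCm38.p6) and were matched by symbol. RT day 3 and RT with FTY720 pools, with under 5 Gzmk-high cells each, entered no gene test. Some genes of the lists are counted but not reported here by name.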

Additional observations from a re-analysis of the deposited data

Results flagged for a closer look

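Single pools stood apart from the others in 14 of 57 groups of pool values that were checked. The usual rate of about 1 in 20 does not apply, since genes with UMIs in a single pool stand apart by construction. Gzmk, a rule gene, was among the groups, and the check is a description. FTY720 day 3 replicate 1, the sum with the fewest UMIs (70135), held 6 of the 14: the share of Gzmk-high cells (24.0%), Ccl5 (13973 CPM), Gzmk (798 CPM), Itga4 (1326 CPM), the phosphodiesterase Pde2a (114 CPM) and the xanthine-metabolising Xdh (57.0 CPM). Xdh was called lower in Gzmk-high than in Klre1+ cells, and this pool held its highest value.

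RT day 1 replicate 2 was highest in Fgl2 (464 CPM), Csf1 (8.43 CPM, 3 UMIs) and Csf2 (2.81 CPM, 1 UMI), and RT day 1 replicate 1 in Irf8 (64.4 CPM) and Ccl1 (6.44 CPM, 1 UMI). NT day 1 replicate 2 was highest in Trbv13-3 (89.9 CPM) and Nrgn (3.46 CPM, 1 UMI), and NT day 3 replicate 1 in Tnfrsf4 (18.7 CPM, 3 UMIs). The genes with 1 to 3 UMIs, and Trbv13-3, are at 0 in the other pools.

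In the TCR tables, 65 paired alpha and beta sequences were shared between the replicates of a condition under 1 tag, against 4 under different tags.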

How the results depend on the processing

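Of 3628 repeats of 210 gene results, 3278 kept their direction and their side of the threshold, 284 lost the call, 59 gained it and 7 changed sign. Those 7 were Ccl5 (-0.39), Ccr2 (-0.40) and Entpd1 (-0.50) against Klre1+ cells with at least 3 Gzmk UMIs, Gzmb (-0.40) and Eomes (-0.19) against such Havcr2+ cells, and Runx3 (-0.044) and Tnf (0.62) against Havcr2+ cells in green cells only. The cause of these changes was not tested. Calls against Gzmk-low cells came to 1065 without the filter and to 366 to 819 without single pools. Calls against Klre1+ cells came to 732 without the filter, 8 with the Gzmk-limited class and 229 to 479 without single pools, and those against Havcr2+ cells to 351 with the Gzmk-limited class and 683 to 1240 without single pools. RT against NT at day 1 gave 99 calls without the filter, 90 with at least 10 cells a sum, 10 with Gzmk of at least 2, 10 without cells with 2 or more beta chains, 1 with tag pools and 3 to 14 without single pools. NT day 3 against day 1 gave 43 without the filter, 53 with at least 10 cells and 0 to 2 without single pools. With at least 10 cells, a lone RT day 1 or NT day 3 pool stood against 2 of NT day 1 with 1 residual degree of freedom, and was assumed to vary like them. Red against green gave 1 with DESeq2, 69 without the filter, 52 with Gzmk of at least 2, 20 without cells with 2 or more beta chains and 3 with at least 3 cells. It could not be fitted on replicate 1 alone, with at least 10 cells, with Gzmk of at least 5 or without a pool, where fewer than 2 pools are left. The red minus green share was 1.19 points by the labels' colours, -5.40 in replicate 1, and -7.37 to -5.46 without single pools. The RT minus NT share ranged from -6.53 to -0.72, and the TCR difference from 1.38 to 3.74, without single pools. The TCR difference was 4.37 with tag pools and 2.96 with Gzmk of at least 2, and passed the test in both.

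Replicate numbers are given by the labels, and the NT day 1, RT day 1 and NT day 3 pools of the same number shared a well. The deviations of same-numbered pools correlated at 0.080, 0.067 and -0.0095 over 3117 genes. With so few pools of few cells, these values cannot decide whether the numbers pair the samples. The main tests between conditions had no block for the replicate. With the replicate block, RT against NT at day 1 gave 19 calls and NT day 3 against day 1 gave 7, and the p of the RT share was 0.656. Depth limits the sums of Gzmk-high cells, of which the smallest held 6 cells.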
